A study of Caenorhabditis elegans with 2 samples.

Results

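The genes described here are 41 protein-coding genes of Caenorhabditis elegans named for splicing factors and related RNA-binding proteins, out of 19973 protein-coding genes on the 6 nuclear chromosomes. They are the genes whose Ensembl WBcel235 symbol starts with snr- (7 genes), rsp- (8), prp- (13), uaf- (2), rnp- (9) or sap- (2). This rule by symbol was chosen with earlier results of these data known. The rule also covered symbols that start with hrp-, and 0 protein-coding genes had one. One gene taken in by its symbol, rnp-8, encodes a partner of the cytoplasmic poly(A) polymerase GLD-2 and is not known as a splicing factor. The measurement was chromatin immunoprecipitation with sequencing (ChIP-seq) of eGFP-tagged NHR-237, a nuclear hormone receptor. It was made in whole L2 larvae of strain OP228, in which the transgene insertion wgIs228 is carried in a background with the unc-119(ed3) mutation on chromosome III. Both libraries, biological replicates 1 and 2, came from pooled males and females of this 1 strain, and the fragment size range was 150 to 350 bp. Neither the promoter of the tagged protein nor the cells that make it are given in the labels.

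Splicing is carried out by the spliceosome, which is assembled from small nuclear ribonucleoproteins (snRNPs). Each snRNP of the U1, U2, U4 and U5 type holds a small nuclear RNA inside a ring of Sm proteins, which in this worm are the products of the snr- genes. SR proteins, the products of the rsp- genes, bind exons through RNA recognition domains and recruit the machinery to splice sites, whereas hnRNP proteins often compete with them. The prp- genes carry the names of yeast precursor RNA processing genes, and uaf-1 and uaf-2 encode the large and small subunits of U2AF, which reads the 3′ splice site.

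The authors deposited lists of regions, each with a summit and a signal value for enrichment over a control, in the ce11 build (WBcel235). Each replicate list was relaxed so as to let background through and held 30000 regions. Calling on both libraries together gave 6542 (the pooled list), and 350 regions formed the IDR list. The irreproducible discovery rate (IDR) compares the ranks of regions between replicates, and here the IDR peaks were exactly the 350 highest regions of the pooled list. Signal scales belong to each list, so replicates were compared by rank, with rank 1 the highest signal. A gene was counted as near a region when the summit lay within 1000 bp of the 5′ end of its gene model. There is 1 group and no contrast between groups, so counts are set beside those of all protein-coding genes without a test. Intervals are exact binomial 95% intervals and cover counting error in genes only, and read depth is unknown.

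Regions in the pooled list lay near 15 of the 41 members (36.6%, interval 22.1 to 53.1), where 15.8% of all protein-coding genes had one. Only 3 members, snr-4, rsp-1 and rsp-2, had an IDR peak (7.32%, interval 1.54 to 19.9, with 1.72% of all genes), and rsp-1 and rsp-2 shared the same peak. In the relaxed lists, 30 members had a region in replicate 1 (73.2%, with 50.3% of all genes) and 26 in replicate 2 (63.4%, with 49.3%). Each relaxed list had a region, not necessarily the same one, near 22 members (53.7%, interval 37.4 to 69.3, with 28.8% of all genes). At prp-31, rnp-3, rnp-5, rnp-8, sap-49 and rsp-8, which are among the 22, no region of replicate 1 overlapped one of replicate 2. At 7 members, prp-3, prp-17, prp-18, prp-21, rsp-4, snr-5 and uaf-1, no region was listed in either replicate. The 15 members with a pooled region shared 14 distinct regions, since 2 pairs of genes had 1 region each between them and snr-4 had 2.

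Among the larger families, the SR genes had the highest share near pooled regions. A pooled region lay near 6 of 8 SR genes (75%, interval 34.9 to 96.8), compared with 2 of 7 Sm genes (28.6%, interval 3.67 to 71.0), 4 of 13 prp- genes (30.8%, interval 9.09 to 61.4) and 2 of 9 rnp- genes (22.2%, interval 2.81 to 60.0). The share of all protein-coding genes was 15.8%, and the intervals overlap for every pair of families. The remaining families had 1 of 2 uaf- genes and 0 of 2 sap- genes. The 6 SR genes share sources, as rsp-1 and rsp-2 had the same region. When each relaxed list had to hold a region near the gene, overlapping or not, the order was different. Of the Sm genes, 6 of 7 had a region in both replicates (85.7%), where 28.8% of all protein-coding genes had one. Next were 6 of 9 rnp- genes (66.7%), 5 of 8 SR genes (62.5%) and 4 of 13 prp- genes (30.8%, close to the share of all genes). The Sm share thus stood above the SR share in both replicates together and below it in the pooled list, and neither difference was tested. In the relaxed list of replicate 1 alone the SR share was 87.5% and the Sm share 85.7%. In that of replicate 2 they were 62.5% and 85.7%. The hnRNP family of the rule could not be compared, because it had no member.

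**Figure D1:**
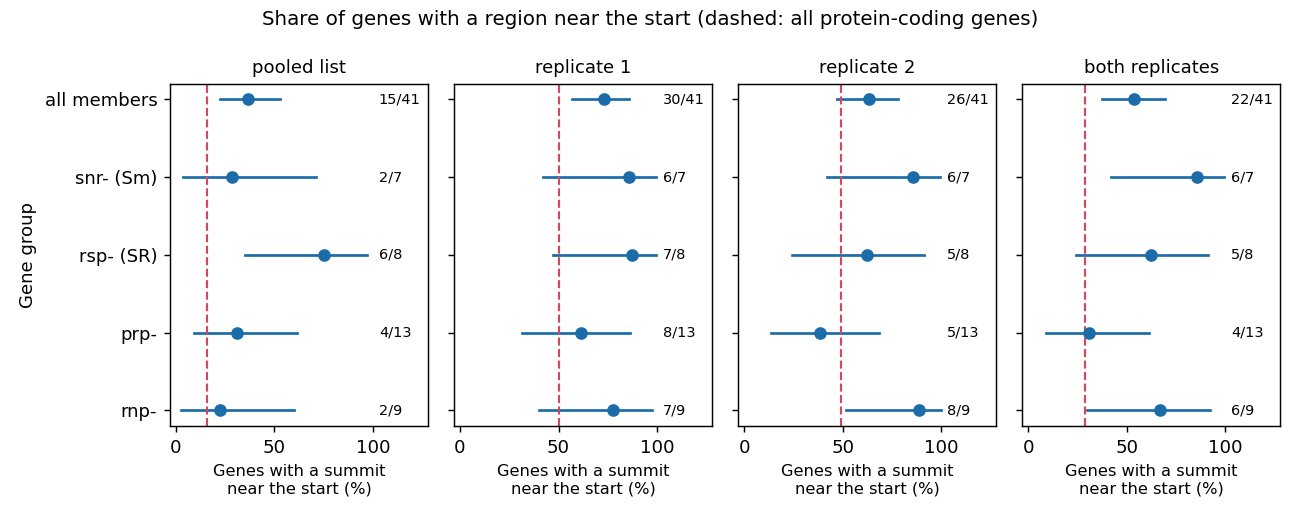
Share of genes with a summit within 1000 bp of the 5′ end (percent) for all members and the 4 larger families in 4 region lists; points are shares, bars exact 95% binomial intervals, numbers the genes near a region over the genes in the family, and dashed lines the share of all protein-coding genes. The SR family stands at 6 of 8 in the pooled list, and the Sm family at 6 of 7 in both replicates together.

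The highest signal of any member was at snr-4, which encodes the Sm protein SmD2 (V 11978508 to 11979723, minus strand). Its pooled peak at V 11979888 to 11980263 had a signal of 90.9 and rank 62, with the summit 353 bp upstream of the start. A second, overlapping IDR peak had its summit at −556 bp, a signal of 62.1 and rank 154. In replicate 1 a single region was listed there, with a signal of 60.9 and rank 63, and its summit at −501 bp lay between both pooled summits. In replicate 2 there were 2 regions, at −351 bp with a signal of 27.5 and rank 102, and at −562 bp with a signal of 9.34 and rank 6533. Both replicates thus ranked snr-4 among their 350 highest regions, the only member of which this held (0.921% of all genes). The annotated snRNA gene T11F9.15 (V 11980118 to 11980261, plus strand) lies between the pooled summits, 42 bp from the first and 18 bp from the second. Its start is 395 bp from that of snr-4, so which of these genes the peaks belong to cannot be told apart.

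The other listed Sm genes ranked below snr-4 in both replicates. The gene snr-3, for SmD1 (II 6488830 to 6489761, minus strand), had a pooled region of signal 24.1 and rank 2116, which it shared with the SR gene rsp-5. For snr-1 (SmD3) the highest regions ranked 9573 in replicate 1 and 3655 in replicate 2. For snr-2 (SmB) they ranked 28923 and 22540, for snr-6 (SmE) 25363 and 9315, and for snr-7 (SmG) 7071 and 12860. In these 4 genes the highest summits of the replicates lay 180 bp to 1132 bp apart, and at each gene at least 1 region of replicate 1 overlapped one of replicate 2. No region was listed near snr-5 (SmF), whose nearest pooled summit was 7376 bp upstream.

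Among the SR genes, rsp-1 (II 11453362 to 11455864, plus strand) and rsp-2 (II 11451441 to 11452955, minus strand) are transcribed away from each other, with starts 407 bp apart. The IDR peak between them, at II 11453026 to 11453401, had a signal of 56.0 and rank 189, and its summit was 148 bp upstream of rsp-1 and 259 bp upstream of rsp-2. Replicate 2 listed the region with a signal of 26.9 at rank 110, and replicate 1 with a signal of 25.5 at rank 481. The summits of the replicates lay 22 bp and 16 bp from the pooled summit, on either side. The region was among the 350 highest of replicate 2 and outside them in replicate 1, and the 350 highest regions of a single replicate lay near 1 member in replicate 1 and 4 in replicate 2.

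The gene rsp-6 (IV 7789847 to 7791229, minus strand), for the worm counterpart of the small human SR protein SRp20, had a pooled signal of 41.6. Its summit lay 171 bp upstream and also within 1000 bp of the start of C33H5.13, the next gene upstream on the same strand. Its rank of 361 placed it just outside the IDR list, whose lowest signal was 41.9. Replicate 1 listed it with a signal of 26.3 at rank 442, and replicate 2 had no region near the start, its nearest summit being 2345 bp from the pooled one. At rsp-7 (signal 25.1, rank 1744) the pooled summit lay 206 bp upstream, in a promoter shared with snu-13, which encodes a protein of the U4 snRNP and of box C/D snoRNPs. Replicate 1 ranked that region 856, while in replicate 2 the highest region of rsp-7 ranked 5633 and had its summit 228 bp from the pooled one.

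For rsp-8, a gene related to the splicing regulator Tra2 of Drosophila, the replicates marked different places. The pooled summit (signal 21.5, rank 3545) lay in an intron, 324 bp downstream of the start. It had a counterpart in replicate 2 at rank 606 and none in replicate 1, whose regions lay at −758 bp and −544 bp, at ranks 2079 and 11867. At rsp-3 and rsp-4 no pooled region was listed. Near rsp-3, for the counterpart of human SF2/ASF, only replicate 1 had regions, the highest at rank 13691. Near rsp-4, for the counterpart of human SC35, neither replicate had one.

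A second promoter shared by members, here of different families, was that of snr-3 and rsp-5 (II 6490165 to 6491340, plus strand), whose starts lie 404 bp apart. The pooled region at II 6489855 to 6490230 had its summit 122 bp upstream of rsp-5 and 282 bp upstream of snr-3. Replicate 2 listed it with a signal of 13.7 at rank 1320, and replicate 1 with a signal of 11.4 at rank 12121. The replicate summits were 0 bp and 29 bp from the pooled one. In this place the replicates gave the same position and very different ranks.

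**Figure D2:**
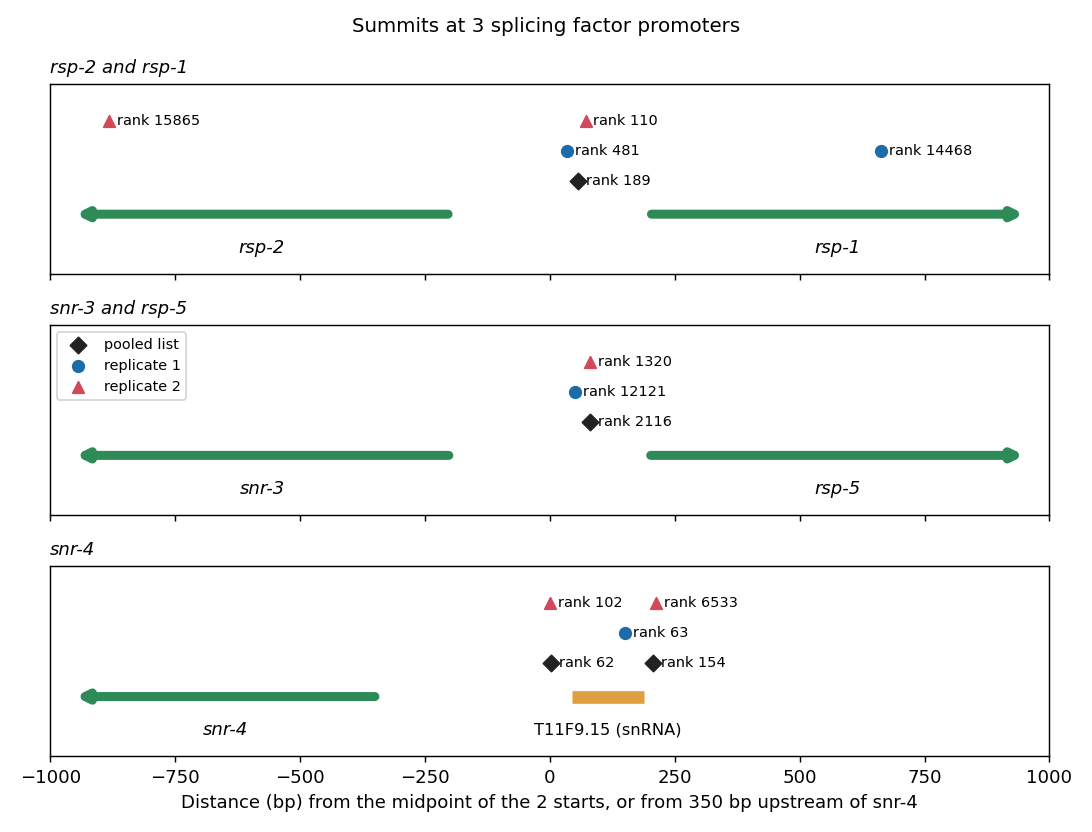
Summits at 3 promoters, plotted by distance in bp from the midpoint of both starts, or from 350 bp upstream of snr-4; green arrows are gene bodies in the direction of transcription, shortened where they pass the plotted range, the orange bar is an snRNA gene, and diamonds, circles and triangles are summits of the pooled list, replicate 1 and replicate 2 with their ranks. Summits lie between the divergent starts of rsp-1 and rsp-2 and of snr-3 and rsp-5, and on both sides of the snRNA gene at snr-4.

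The sequence around the summits is shown for 5 pooled regions, which are the higher peak of snr-4, the IDR peak of rsp-1 and rsp-2, the second divergent pair, and rsp-6 and prp-8 as further members of high signal. Each window is the reference sequence (RefSeq, WBcel235, plus strand) from 100 bp before to 100 bp after the summit, and none overlaps an annotated UTR. Capitals mark the motifs searched on both strands, described with the motif counts.
snr-4, chrV:11979976-11980176: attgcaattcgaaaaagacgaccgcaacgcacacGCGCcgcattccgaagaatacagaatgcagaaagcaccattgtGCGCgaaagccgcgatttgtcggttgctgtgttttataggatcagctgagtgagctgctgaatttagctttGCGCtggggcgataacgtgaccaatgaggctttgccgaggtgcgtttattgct
rsp-1 and rsp-2, chrII:11453114-11453314: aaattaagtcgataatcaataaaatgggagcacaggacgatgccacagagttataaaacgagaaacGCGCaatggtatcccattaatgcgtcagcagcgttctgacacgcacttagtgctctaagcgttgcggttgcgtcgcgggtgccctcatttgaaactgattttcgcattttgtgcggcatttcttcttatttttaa
snr-3 and rsp-5, chrII:6489943-6490143: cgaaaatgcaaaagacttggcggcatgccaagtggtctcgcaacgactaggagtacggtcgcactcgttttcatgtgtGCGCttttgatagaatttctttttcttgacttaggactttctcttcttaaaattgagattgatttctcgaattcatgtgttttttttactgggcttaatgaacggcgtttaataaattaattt
rsp-6, chrIV:7791300-7791500: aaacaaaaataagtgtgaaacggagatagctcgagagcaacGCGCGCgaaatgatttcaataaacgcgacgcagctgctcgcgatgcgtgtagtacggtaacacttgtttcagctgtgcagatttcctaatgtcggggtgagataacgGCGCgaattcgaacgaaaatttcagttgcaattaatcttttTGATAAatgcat
prp-8, chrIII:8164016-8164216: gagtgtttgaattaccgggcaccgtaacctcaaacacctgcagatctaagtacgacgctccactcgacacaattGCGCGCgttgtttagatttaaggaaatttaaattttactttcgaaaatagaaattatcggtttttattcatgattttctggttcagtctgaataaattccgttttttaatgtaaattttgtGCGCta

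Of the 6 motifs listed for this work, few occurred in the 14 windows at member regions. The GA repeat GAGAGAG was found in 1 window, that of rsp-8 (7.14%), where 6.23% of the 2763 pooled windows near protein-coding starts and 5.15% of windows upstream of all starts, of the same 201 bp length, held it. CCGCCC was found at prp-19 and uaf-2 (14.3%, with 6.04% of pooled windows and 5.97% upstream of all starts). The GATA motif TGATAA was found at rsp-6 alone (7.14%, with 15.5% and 22.8%) and AGTTCA at rnp-9 alone (7.14%, with 10.6% and 14.3%). The nuclear receptor hexamers AGGTCA and AGTGCA were in 0 of 14 windows, and 4.38% and 7.49% of pooled windows held them. The short palindrome GCGC, which was chosen after these windows were seen, was present in 8 of 14 (57.1%), compared with 33.2% of pooled windows and 20.3% of windows upstream of all starts. The windows had a median GC content of 37.6%, with 35.8% at pooled regions near starts, and the 2 windows of snr-4 are close neighbours.

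Of the 13 prp- genes, 0 had an IDR peak (interval 0 to 24.7, with 1.72% of all genes). A pooled region lay near 4 of them (30.8%, with 15.8% of all genes). The highest was at prp-40 (III 9522075 to 9525454, plus strand), whose yeast counterpart is a protein of the U1 snRNP, with a signal of 35.5 and rank 518. Its summit was 243 bp upstream of the start, in a divergent promoter shared with clu-1. Replicate 2 ranked this place 209, with a signal of 20.8, and replicate 1 ranked it 1103, with a signal of 20.4. Next was prp-8 (signal 32.6, rank 652), which encodes the central protein of the U5 snRNP, with the summit 257 bp upstream. It ranked 599 in replicate 1, and replicate 2 had no region near the start.

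At prp-19 (signal 30.9, rank 780), for the ubiquitin ligase that gives its name to the Prp19 complex, the summit lay 670 bp upstream. It was also within reach of K10D2.5 and emb-1. The start of K10D2.5, on the other strand, lay 675 bp upstream of prp-19, and thus beside the summit. When each summit counted for its closest start alone, prp-19 had no pooled region. Both replicates had a region near this summit, at ranks 1445 and 2749. At prp-6 (signal 22.8, rank 2733), for a protein that bridges U5 to the U4 and U6 snRNPs, a region at −732 bp was listed in replicate 2 at rank 600, and replicate 1 had none near the start. Of the 9 other prp- genes, prp-9 and prp-31 had regions in both replicates, prp-4, prp-38 and prp-39 in replicate 1 only, and the rest had none. The ranks of prp-9, whose product belongs to the U2-associated SF3A complex, were 21039 in replicate 1 and 3969 in replicate 2. Those of prp-31, for a protein of the U4 and U6 snRNPs, were 27359 and 15956.

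The remaining families had pooled regions at rnp-6, rnp-9 and uaf-2, each with an intronic summit. The signals at rnp-6 and rnp-9 were above the pooled list's median of 21.9, and that at uaf-2 was below it. At rnp-6, for the counterpart of human PUF60, the pooled summit (signal 24.0, rank 2164) was in an intron 578 bp downstream of the start, and ranks were 26597 and 9242 in replicates 1 and 2. At rnp-9 (signal 23.3, rank 2474), the only member on the X chromosome, the summit was 734 bp downstream, and ranks were 1239 and 22803. At uaf-2 (signal 20.0, rank 5029) the summit was in an intron, 915 bp downstream of the start and 75 bp from the snoRNA gene Y116A8C.50. It was listed in replicate 1 at rank 1894 and not in replicate 2. Near rnp-2, for a protein related to the human U1 and U2 snRNP proteins A and B, replicate 2 alone had a region, 19 bp downstream of the start with a signal of 15.9 and rank 645, and no pooled region was listed. No pooled region was listed at the other genes of these families. For rnp-3, related to rnp-2, the highest regions ranked 17114 and 16702. For rnp-4, for the Y14 protein of the exon junction complex, the single region of replicate 1 ranked 24851, and for rnp-7 and sap-140 those of replicate 2 ranked 26136 and 12158. For sap-49, for the counterpart of the human U2 snRNP protein SF3B4, the highest regions ranked 17146 and 4631 in replicates 1 and 2.

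Pooled summits lay mainly upstream of the members, as they did for other genes. Of the 15 members with a pooled region, 11 had the highest summit upstream (73.3%, with 66.7% over the 3157 genes that had one), at a median position of −206 bp (−169 bp over all). By annotation, 10 of the 14 regions had an intergenic summit and 4 an intronic one. The 4 intronic summits were those of rnp-6, rnp-9, rsp-8 and uaf-2, and each was downstream of its start. The distance of 1000 bp cut between uaf-2 at 915 bp and sap-140, whose nearest pooled summit was 1110 bp upstream with a signal of 40.6. The next members on either side were rnp-9 at 734 bp and rsp-4, with a summit 1238 bp upstream and a signal of 19.5.

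**Figure D3:**
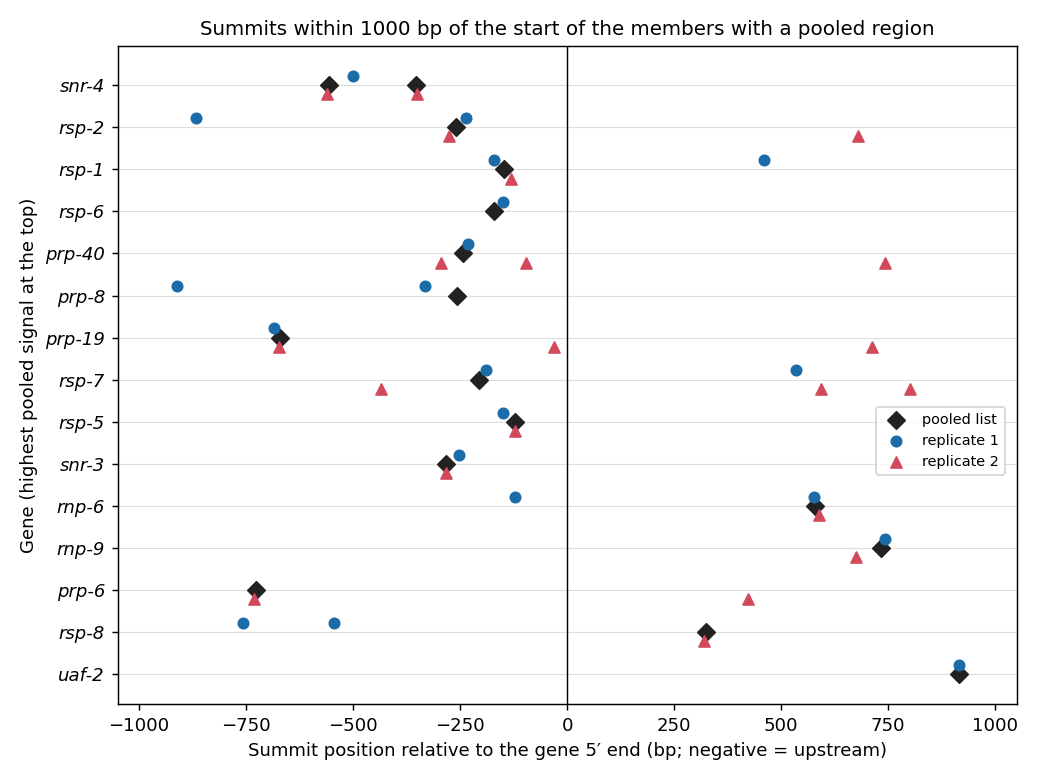
Positions of all summits within 1000 bp of the 5′ end (bp, negative upstream) for the 15 members with a pooled region, ordered by highest pooled signal; diamonds are the pooled list, circles replicate 1 and triangles replicate 2. Pooled summits lie upstream at 11 genes. Within 150 bp of the pooled summit, replicate 1 has no summit at rsp-8 and prp-6. Replicate 2 has none at rsp-6, prp-8, rsp-7 and uaf-2.

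Divergent promoters were common among the members. For 24 of 41 (58.5%) a gene on the other strand started within 1000 bp upstream, as for 17.7% of all protein-coding genes. Pooled regions lay near 10 of these 24 (41.7%), with 24.2% of all genes of this arrangement, and near 5 of the 17 others (29.4%, with 14%). At rnp-6 and uaf-2, which are among the 10, the summit lay in an intron and not between the starts. The share of members with a pooled region was above that of all genes in both arrangements. Of the regions described above, those at rsp-1 and rsp-2, at snr-3 and rsp-5, and at rsp-7 and snu-13 each lay between genes that both encode splicing proteins. For the rest of the 10, the divergent genes were clu-1 (prp-40), bath-42 (prp-8), K10D2.5 (prp-19), rde-10 (rnp-6) and itsn-1 (uaf-2). How often divergent genes encode related proteins over all genes was not counted.

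Other members sit close behind a gene on the same strand, an arrangement that in C. elegans is typical of operons, in which genes share a promoter. A gap of at most 500 bp was found for 8 members (19.5%, with 18.1% of all genes), and only rsp-6 of these had a pooled region near its own start (12.5%, with 16.1% of all genes so placed). The start of the first gene of the chain was near a pooled region for 4 of the 8 (50%, with 22.9% of the 3618 genes so placed), a count made after the data were seen. For prp-38 the first gene was plrg-1, which encodes a protein of the Prp19 complex. The region of plrg-1 was an IDR peak (signal 47.6, rank 270) that ranked 225 in replicate 1 and 5769 in replicate 2. For rnp-7, for a protein of the U1 snRNP, the first gene was syf-2, another splicing gene (signal 34.2, rank 563), with ranks of 8083 and 206. For prp-39 it was hmgs-1 (signal 39.6, rank 392) and for sap-49 it was arp-6 (signal 25.1, rank 1747). The region of rnp-2 named above stands at the start of the chain that holds rnp-3.

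The replicates differed in which members they ranked high. Of the 350 highest regions of replicate 1, 1 region lay near a member, snr-4 (2.44% of members, with 1.65% of all genes). Those of replicate 2 lay near 4 members, snr-4, rsp-1, rsp-2 and prp-40 (9.76%, with 1.54%). When each replicate list was reduced to its 6542 highest regions, the counts were 13 in replicate 1 (31.7%, with 15.7%) and 15 in replicate 2 (36.6%, with 15%). The median rank percentile, the share of a list's regions below the member's highest one, was 63.8 for the 30 members listed in replicate 1 and 85.7 for the 26 in replicate 2. Over all genes with a region the medians were 60.5 and 59.8. In replicate 1 the members were near the median of all genes, and in replicate 2 above it. This rests on the distance, since at 2000 bp the members' median in replicate 1 was 86.5 and that of all genes 65.4.

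**Figure D4:**
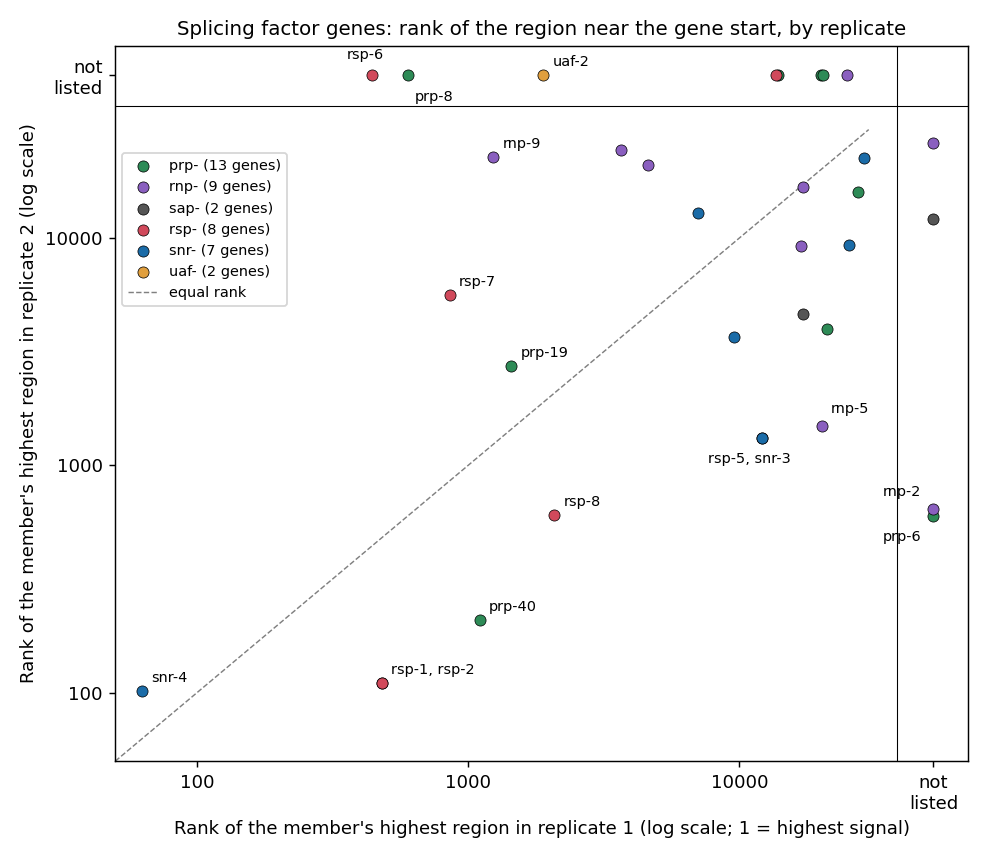
Rank of the highest region within 1000 bp of each member's start in replicate 1 (horizontal) and replicate 2 (vertical), both on log scales with rank 1 the highest signal; each point is a gene, coloured by family, members absent from 1 list lie in the outer strips, and the 7 absent from both are not drawn. Points below the dashed line ranked higher in replicate 2, as did 15 of the 22 members in both lists.

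Of the 22 members with a region in both lists, 15 had the better rank in replicate 2 (68.2%), as did 48.5% of all genes with both. With genes that share the same regions counted once it was 13 of 20, and with a distance of 2000 bp it was 17 of 31 (54.8%, with 48.6%). Of the 16 genes in both lists from the list of splicing regulators given at the end, 4 had the better rank in replicate 2 (25%). From the list of further spliceosome genes, also given at the end, it was 11 of 19 (57.9%). The highest summits of the replicates lay within 150 bp of each other for 9 of the 22 (40.9%, with 32.3% of all genes). For the other 13 the ranks compare summits further apart than that, and the highest regions overlap at 3 of them. At the 14 pooled regions themselves, 12 had a summit of replicate 1 within 150 bp (85.7%, with 87.6% of all pooled regions near starts), 10 one of replicate 2 (71.4%, with 65.2%) and 8 both (57.1%, with 54.5%). In 4 of these 8 replicate 2 had the better rank, with 44.5% over all. At matched positions the members thus stood close to other pooled regions.

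The largest rank differences went in both directions. Toward replicate 2 they were those of rnp-5, which encodes the RNPS1 counterpart (ranks 20113 and 1493 in replicates 1 and 2), prp-9 and snr-6. Toward replicate 1 they were those of rnp-9, rnp-1 (3668 and 24466) and rnp-8 (4623 and 20908). Except for rnp-9 and prp-9, the summits compared in these genes lay more than 150 bp apart. Across the 22 members, of which 2 pairs share regions, Spearman's rho of the ranks was 0.47, with 0.27 across the 5761 genes in both lists.

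Splicing genes outside the symbol rule were counted from lists compiled with earlier results of these data known. Of 44 further spliceosome genes, 13 had a pooled region (29.5%, with 15.8% of all genes) and 4 an IDR peak (9.09%, with 1.72%). These were rsr-1, for the counterpart of the SR-related protein SRm160 (signal 78.1, rank 93, in a promoter within reach of sri-5), mog-4, for a DEAH-box RNA helicase (72.7, rank 108), smu-1, for a spliceosome-associated protein (54.5, rank 198), and usp-39, for a protein of the U4/U6.U5 complex (44.6, rank 320). For mog-4 the ranks were 131 and 99 in replicates 1 and 2, and for smu-1 they were 132 and 3364. Of 28 splicing regulators, 10 had a pooled region (35.7%, with 15.8% of all genes).

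The 8 hnRNP genes with the current symbols hrpa-, hrpf-, hrpk-, hrpl- or hrpr- are given beside the empty hrp- family and are not members. Genes with hrpu- symbols were not in this list and are not analysed here. A pooled region lay near 3 of them (37.5%, interval 8.52 to 75.5, with 15.8% of all genes), hrpa-1, hrpa-2 and hrpf-2. An IDR peak lay near 0 of them, with 1.72% of all genes. The highest pooled region was at hrpa-1, for an hnRNP A1 type protein, with a signal of 37.8 and rank 440. The ranks of hrpa-1 in the replicates were 559 and 553. The share of these hnRNP genes lay between that of the Sm and the SR genes, and the intervals of all 3 overlap. As a scale for these shares, 64 of 82 ribosomal protein genes had a pooled region (78.0%), close to the 75% of the SR genes, and 28 had an IDR peak (34.1%).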

How the data were processed

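Binding was measured by ChIP-seq in 2 libraries of 1 group. Per the labels and the file descriptions, the authors called regions against a control, per replicate and on both replicates together, and kept an IDR subset. The aligner, the peak caller, thresholds and the control's strain are not stated in the labels. The signal of each region (column 7) and its −log10 q-value (column 9) were deposited by the authors. Regions were ranked by signal, since 376 regions of replicate 1 and 292 of replicate 2 tied at the highest −log10 q-value. Only the ce11 lists were used, and all region ends lay within the WBcel235 chromosomes. Gene models came from Ensembl release 115. Ranks, distances, shares and exact binomial intervals were computed with SciPy 1.17.1, pandas 2.3.3 and NumPy 2.4.6 under Python 3.11.15. Plots were drawn by matplotlib 3.10.9. The counting was tested on simulated data with planted regions. The 48 and 29 symbols of the further spliceosome and regulator lists matched 44 and 28 genes. Members and lists were chosen with earlier results of these data known. Named genes were all members with an IDR peak or among the 350 highest regions of either replicate, up to 4 per family by pooled signal, those nearest the distance limit, and those with the largest rank differences. Any other gene named was picked with its values in view. Alternatives varied the distance, the use of the closest start only, the signal cutoff and the replicates. No test was made, and read counts were not analysed here. A gene and a sequence window are not reported here.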

Additional observations from a re-analysis of the deposited data

How the results depend on the processing

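Counts that changed by more than 1.5 times are given here, with the pooled count and the median that moved beyond the spread of the replicates. The cause was not tested. The count of members with an IDR peak (3, with 1.72% of all genes) was 1 among regions above the list's median signal (0.886%). Leaving out a replicate did not repeat the calling. The highest regions of the other replicate's list were taken, as many as the IDR or pooled list held. The IDR count so ran from 1 without replicate 2 (1.65%) to 4 without replicate 1 (1.54%). These are the counts given above for the 350 highest regions of each replicate. The count near pooled regions (15) ran from 13 to 15 when 1 replicate was left out, but the genes changed: 10 of the 15 were shared without replicate 1 and 11 without replicate 2. It was 10 at 500 bp (10.1% of all genes), 22 at 2000 bp (25%) and 19 (19%) with the first gene of a chain also counted, an alternative chosen after seeing the data. Near pooled regions the Sm count (2, with 15.8% of all genes) was 4 at 2000 bp (25%). It was 1 when each summit counted for its closest start alone (13%). It ran from 1 without replicate 2 (15.7%) to 3 without replicate 1 (15%). Above the median signal, replicate 1 had 19 members in place of 30, and the share of all genes went from 50.3% to 30.3%. Both replicates had 11 in place of 22 (28.8% to 12.5% of all genes). There 7 members in place of 15 ranked higher in replicate 2, with 48.8% of all genes in both lists in place of 48.5%. Both replicates had 10 members at 500 bp (13.7% of all genes), of which 8 ranked higher in replicate 2 (80%, with 48.6%). By the closest start, both replicates had 14 (23.6%). The 350 highest regions of replicate 1 (1 member, with 1.65% of all genes) gave 0 at 500 bp (1.3%). They gave 2 at 2000 bp (2.22%) or by overlap of the interval (1.82%). The 1000 highest of replicate 1 gave 6 (3.87%). The 1000 highest of replicate 2 gave 7 in place of 4 (3.23%). The median rank percentile in replicate 1 (63.8) was 86.5 at 2000 bp, where that of all genes was 65.4. Ranking by −log10 q-value was not run, because of ties.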

Other observations

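Pooled regions also lay inside members, more than 1000 bp from the start. There were 4 such genes with 1 region each: rnp-8 (2810 bp downstream, signal 27.3), rnp-1 (1691 bp, signal 23.8), prp-40 (2094 bp, signal 22.6) and rnp-7 (2186 bp, signal 21.9). For prp-40, rnp-1 and rnp-8 these lay within 1000 bp of an annotated transcript start further downstream. The pooled region nearest to snr-5 was one of the highest of the series, with a signal of 196 and rank 19, and lay 7376 bp upstream of its start. For prp-4 the nearest pooled summit, 7155 bp downstream of the start, had a signal of 44.2 and rank 324. All of these genes were picked with their values in view.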
